A study of Mus musculus with 4 samples.

Results

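The genes described here are 9 members of the plasminogen activator system and its serpin and surface partners in cultured mouse vascular smooth muscle cells. They are Plau, Plat, Plaur, Serpine2, Serpinf1, Serpinb6a, Anxa2, S100a10 and Lrp1. They were taken by gene symbol from tables of 22488 genes, and all 9 were listed, were above 0 in each of the 4 libraries and passed the filter on low values. The cells came from C57BL/6 mice, were at passages 4 to 10, and were transfected for 48 hours with a non-targeting scramble siRNA (2 libraries) or with an siRNA that targets circEsyt2, a circular RNA (2 libraries). The groups differ in the siRNA alone as far as the labels say, no untransfected cells were analysed here, and the labels do not tie the 2 libraries of a group to separate cultures. The p-values therefore rest on the spread between these libraries, which may be technical.

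Plasmin is a broad serine protease that dissolves fibrin and cleaves matrix proteins, and it is made from the inactive precursor plasminogen by the urokinase-type (Plau) and the tissue-type (Plat) plasminogen activator. Urokinase is held at the cell surface by its receptor (Plaur), plasminogen docks on surface proteins such as the complex of annexin A2 (Anxa2) and S100A10 (S100a10), serpins such as protease nexin-1 (Serpine2) inactivate the activators, and the endocytic receptor Lrp1 clears the protease and serpin complexes. Smooth muscle cells use this system when they migrate and remodel the arterial wall. Serpinf1, which encodes pigment epithelium-derived factor, and Serpinb6a, an intracellular serpin gene, belong to the serpin family by structure, and Serpinf1 protein is known not to inhibit proteases.

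Values are FPKM, which are scaled by gene length and by library total, and they rest on 2516428 to 4116791 counted reads per library. The labelled cell type was checked by 12 smooth muscle markers, whose summed level was 1994 and 1996 FPKM in the scramble libraries, against 1266 and 1224 FPKM after circEsyt2 siRNA. Acta2, the smooth muscle actin gene, made up most of each sum and ranged from 829 to 1446 FPKM. Tagln and Myh11, named after their values were seen, had means of 9.59 and 8.17 FPKM with scramble siRNA. Myocd and Des had a mean under 1 FPKM and were not tested. Of the 10 tested smooth muscle markers 8 fell and 0 rose, and of 9 tested fibroblast markers 3 fell and 0 rose, beside 7.26% of all tested genes that fell and 5.47% that rose. CircEsyt2 siRNA replicate 1 stood apart in hepatocyte markers: all 16 of these genes had their highest value there, and their summed level was 3777 FPKM, against 120 FPKM in circEsyt2 siRNA replicate 2 and 21.2 and 13.4 FPKM in the scramble libraries. In each scramble library 5 of the 16 were at 0, and in circEsyt2 siRNA replicate 2 it was 1. By limma 0 of the 16 were called, and voom called 0. By limma 9 of the 16 had an unadjusted p under 0.05, against 30.1% of all tested genes in either direction. All 9 were higher with circEsyt2 siRNA, against 14.2% of all tested genes that were higher at this p. For 15 of the 16 both circEsyt2 siRNA libraries lay above both scramble libraries, against 29.7% of all tested genes. Markers near 0 with scramble siRNA, some of which passed the filter only through circEsyt2 siRNA replicate 1, could hardly come out lower. These counts therefore describe the libraries and are no test. Fibroblast markers summed to 916 and 826 FPKM with scramble siRNA, compared with 640 and 728 FPKM after circEsyt2 siRNA, and endothelial, macrophage and epithelial markers summed to no more than 45.4 FPKM in any library. The part of these other cell types in the results below was not tested. In bulk samples of this kind, fewer cells of a type and less RNA per cell cannot be told apart.

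With circEsyt2 siRNA, Plau and Serpinf1 fell, and Plaur and Serpinb6a rose, while the other 5 genes did not pass the test. Of all 11290 genes tested, 12.7% were called in either direction (limma, Benjamini-Hochberg adjusted p under 0.05), with 5.47% of all tested genes higher and 7.26% lower, and 4 of these 9 genes were called, 2 higher and 2 lower. The 2 groups of libraries did not overlap for 7 of the 9 genes, 3 of them higher and 4 lower, and 60.7% of all tested genes showed the same (29.7% higher and 31.1% lower), so absence of overlap says little here. The median log2 fold change of the 9 genes was −0.27, and that of all tested genes 0.00. The genes and lists were chosen with earlier results of these data known, so these counts describe the genes and are no test of the group.

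**Figure D1:**
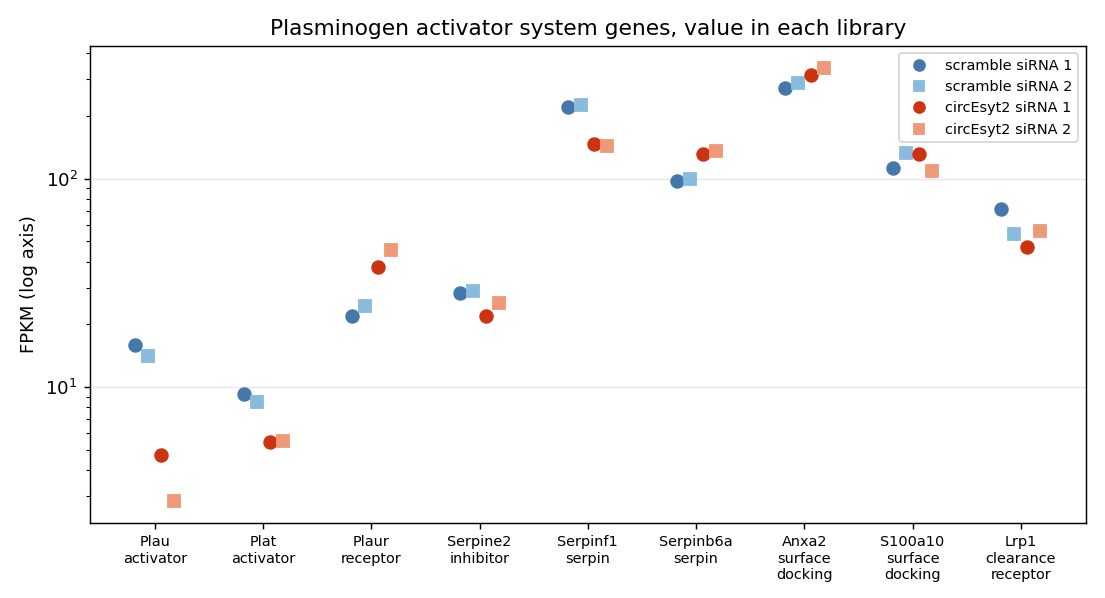
FPKM of each of the 9 genes (log axis) in the 4 libraries, blue for scramble siRNA and red for circEsyt2 siRNA, with the role of each gene under its symbol. Plau lies at 14.2 and 15.9 FPKM with scramble siRNA and at 2.84 and 4.71 FPKM with circEsyt2 siRNA, and Plaur moves the other way.

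Plau had the largest difference of the 9 genes. It lies on chromosome 14 of GRCm38 at 20836660 to 20843385, plus strand (Entrez 18792). Its level was 15.9 and 14.2 FPKM in the scramble libraries, against 4.71 and 2.84 FPKM after circEsyt2 siRNA. Both circEsyt2 siRNA libraries lay under both scramble libraries, and the spread inside each group was small beside the gap. The values rest on 95 and 138 counted reads with scramble siRNA and on 42 and 21 with circEsyt2 siRNA, so the second group is the less precise one. The mean was 15.1 ± 1.26 against 3.77 ± 1.33 FPKM (SD, n = 2), 3.99-fold lower, and Plau fell by 1.78 on the log2(FPKM + 1) scale (SE 0.23, limma adjusted p = 0.0101). Over 14 alternatives the log2 fold change ranged from −2.06 to −1.20 and the adjusted p from 0.00268 to 0.203. The call held in all 10 alternatives that used 4 libraries. Leaving out circEsyt2 siRNA replicate 1, in which hepatocyte markers were high, gave a log2 fold change of −2.06 and kept the call (adjusted p = 0.0110) when the filter was applied to the 3 remaining libraries, but not when the genes tested on 4 libraries were kept (adjusted p = 0.0561). In that second fit limma called 0 of all genes, with 2990 at an unadjusted p under 0.05, so no call described here was kept in it. Leaving out circEsyt2 siRNA replicate 2 gave −1.49 (adjusted p = 0.0461). Leaving out scramble replicate 1 or scramble replicate 2, limma called 0 of all genes, with 1959 and 2231 at an unadjusted p under 0.05, and the adjusted p of Plau was 0.203 and 0.129. The other calls were lost in those fits too. Values given below without a library come from fits with the filter on the 3 remaining libraries. Each such fit leaves 1 group with a single library, which is assumed to vary like the 2 libraries of the other group, so calls kept or lost in it are a weak check.

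Plat, the gene of the tissue-type activator that acts mainly on fibrin-bound plasminogen, lies on chromosome 8 at 22757727 to 22782844, plus strand. It measured 9.30 and 8.45 FPKM with scramble siRNA, compared with 5.45 and 5.48 FPKM after circEsyt2 siRNA. The circEsyt2 siRNA libraries lay close together and under both scramble libraries. The log2 fold change was −0.61 (SE 0.16, 95% confidence interval −1.002 to −0.22), and with an adjusted p of 0.0604 it did not pass the threshold. Limma's voom on the solved read numbers, which called 18.4% of the 10809 genes it tested, was the 1 alternative that called Plat, with a log2 fold change of −0.68 and an adjusted p of 0.0376. Whether Plau and Plat differed from each other in their change was not tested. Plau was the higher activator per length in the scramble libraries, at 1.72 and 1.68 times Plat, and the lower one in the circEsyt2 siRNA libraries, at 0.865 and 0.517 times Plat.

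Plaur, the gene of the urokinase receptor, which is anchored in the membrane by a lipid tail and also signals with integrins, moved opposite to its ligand. It lies on chromosome 7 at 24462484 to 24475968, plus strand (Entrez 18793). Its level was 21.9 and 24.4 FPKM with scramble siRNA, compared with 37.7 and 45.5 FPKM after circEsyt2 siRNA, from 144, 263, 371 and 372 counted reads. Both circEsyt2 siRNA libraries lay above both scramble libraries. The mean rose from 23.1 ± 1.80 to 41.6 ± 5.52 FPKM (SD, n = 2), 1.80-fold, with a log2 fold change of 0.81 (SE 0.15, adjusted p = 0.0225). Over the 14 alternatives it ranged from 0.68 to 0.95. The call was kept without circEsyt2 siRNA replicate 1 (0.95, adjusted p = 0.0291), and it was lost without circEsyt2 siRNA replicate 2 (0.68, adjusted p = 0.0902) and with eBayes without a trend (adjusted p = 0.0733).

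The ratio of ligand to receptor transcripts followed from these opposite changes. Plau over Plaur was 0.729 and 0.580 with scramble siRNA against 0.125 and 0.0624 with circEsyt2 siRNA, a description with no test, since each group has 2 libraries and the ratio is built from genes already tested. In every library the receptor transcript was therefore more abundant per length than that of its ligand, and the gap was wider in each circEsyt2 siRNA library than in either scramble library.

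Promoter sequences from RefSeq (GRCm38.p6) were matched to 6 of the 9 genes, with 7 start sites. Plau, Plat and S100a10 were not matched. The stretches before the start sites of the 3 called genes that were matched are shown because they are the regulatory sequence next to genes that moved, with 4 motifs in capitals wherever they occur on either strand: the AP-1 site TGANTCA, the GC box GGGCGG, the TATA box TATAAA and the cyclic AMP response element TGACGTCA. They are Plaur at chr7:24462233-24462482 (plus strand), Serpinb6a at chr13:34002795-34003044 (minus strand) and Serpinf1 at chr11:75422702-75422873 (minus strand, up to the first base of the gene in GENCODE), each printed 5′ to 3′ on the strand of its gene.
Plaur: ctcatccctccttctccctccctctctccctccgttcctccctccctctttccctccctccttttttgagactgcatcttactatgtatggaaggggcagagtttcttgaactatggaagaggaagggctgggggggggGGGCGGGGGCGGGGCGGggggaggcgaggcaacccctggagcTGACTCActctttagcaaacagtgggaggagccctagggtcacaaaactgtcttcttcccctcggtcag
Serpinb6a: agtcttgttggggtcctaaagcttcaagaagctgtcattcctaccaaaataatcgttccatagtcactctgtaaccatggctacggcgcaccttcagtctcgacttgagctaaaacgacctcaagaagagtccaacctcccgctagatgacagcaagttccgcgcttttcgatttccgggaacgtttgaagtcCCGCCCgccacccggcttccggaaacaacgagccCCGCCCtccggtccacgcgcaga
Serpinf1: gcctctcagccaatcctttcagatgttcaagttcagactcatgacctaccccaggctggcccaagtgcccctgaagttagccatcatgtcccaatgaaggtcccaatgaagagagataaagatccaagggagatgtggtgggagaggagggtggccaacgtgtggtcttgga
The Plaur stretch held 1 AP-1 site, beginning 69 bases before the start site, and a run of 3 overlapping or adjacent GC boxes. The Serpinb6a stretch held 2 GC boxes on the reverse strand and the Serpinf1 stretch none of the 4 motifs. Serpinb6a has another matched start site, with its window at chr13:33936034-33936333, which is not shown and held none of the 4 motifs. Over the windows of 300 bases around the start sites, AP-1 was found at 2 of the 7 member starts (Plaur and Anxa2) and at 7.81% of the 32851 RefSeq promoters, the GC box at 5 of 7 and 35.7%, the TATA box at 1 of 7 (Anxa2) and 13.6%, and the response element at 0 of 7 and 1.79%. A match describes the letters only, and neither binding nor activity was measured.

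Among the genes of AP-1, Ets and early growth response factors, which are known to act on the promoters of this system in other settings, 2 of 13 tested members rose and 0 fell (limma; 5 higher and 0 lower at an unadjusted p under 0.05, and 4 higher and 0 lower of 12 by voom). Of all tested genes 5.47% rose and 7.26% fell, 14.2% were higher and 15.9% lower at an unadjusted p under 0.05, and voom called 7.97% higher and 10.5% lower. The stress-induced factor gene Atf3 measured 2.21 and 4.74 FPKM with scramble siRNA, compared with 50.3 and 59.7 FPKM after circEsyt2 siRNA, a log2 fold change of 3.70 (SE 0.29, adjusted p = 0.00351). Ets2, which encodes an Ets family factor, measured 15.5 and 13.6 against 41.0 and 52.1 FPKM, a log2 fold change of 1.60 (SE 0.16, adjusted p = 0.00508). The median log2 fold change of this list was 0.17.

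Serpine2 encodes protease nexin-1, a secreted inhibitor of thrombin and of both plasminogen activators that smooth muscle cells produce, and it was the least abundant of the 3 serpin genes among the 9. It lies on chromosome 1 at 79794197 to 79861180, minus strand. Its level was 28.4 and 29.0 FPKM with scramble siRNA, compared with 22.0 and 25.4 FPKM after circEsyt2 siRNA. The groups did not overlap, but the difference did not pass the test, with a log2 fold change of −0.27 (SE 0.13, 95% confidence interval −0.59 to 0.05, adjusted p = 0.230). No alternative called it.

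Serpinf1, the gene of pigment epithelium-derived factor, a secreted protein known to restrain the growth of blood vessels, fell with little spread between libraries. It lies on chromosome 11 at 75409769 to 75422701, minus strand (Entrez 20317). Its level was 222 and 227 FPKM with scramble siRNA, compared with 146 and 144 FPKM after circEsyt2 siRNA. The 2 libraries of each group agreed far more closely than the groups did. The mean went from 224 ± 3.67 to 145 ± 1.53 FPKM (SD, n = 2), 1.55-fold lower, and the log2 fold change was −0.63 (SE 0.09, adjusted p = 0.0134). Hepatocytes are known to express Serpinf1. CircEsyt2 siRNA replicate 1 had 31.6 times the summed hepatocyte markers of replicate 2, and the part of hepatocyte RNA in the Serpinf1 level was not tested. The log2 fold change was −0.64 without replicate 1 (adjusted p = 0.0303) and −0.61 without replicate 2, where the call was lost (adjusted p = 0.0584), as it was with eBayes without a trend (adjusted p = 0.0794).

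Serpinb6a, whose protein stays inside the cell and inhibits trypsin-like and lysosomal proteases, rose slightly. It lies on chromosome 13 at 33917918 to 34002794, minus strand (Entrez 20719). Its level was 97.8 and 99.9 FPKM with scramble siRNA, compared with 132 and 137 FPKM after circEsyt2 siRNA. Both circEsyt2 siRNA libraries lay above both scramble libraries. The mean went from 98.8 ± 1.48 to 134 ± 3.44 FPKM (SD, n = 2), 1.36-fold higher, and the log2 fold change was 0.44 (SE 0.10, adjusted p = 0.0401). This call was the least stable of the 4. It was lost with no filter on low values, with quantile normalization, with eBayes without a trend, with the replicate block (adjusted p = 0.0906), and without any 1 of the 4 libraries (adjusted p from 0.0683 to 0.270), although the log2 fold change stayed between 0.36 and 0.46. Exons of Serpinb6a overlap exons on the opposite strand of Nqo2 over 762 bases and of Ripk1 over 241 bases, among others, and whether the counting used strand to separate such reads is not known here. Nqo2 lay between 13.3 and 15.2 FPKM and Ripk1 between 7.92 and 12.3 FPKM in all libraries.

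Serpinb6b, a close relative of Serpinb6a on the same chromosome, moved the other way and further. Its level was 17.0 and 17.0 FPKM with scramble siRNA, compared with 2.35 and 2.26 FPKM after circEsyt2 siRNA. It was 7.38-fold lower by mean FPKM with a log2 fold change of −2.45 (SE 0.16, adjusted p = 0.00256), and this call held in all 10 alternatives with 4 libraries and without either circEsyt2 siRNA library. Serpinb6a over Serpinb6b was 5.74 and 5.89 in the scramble libraries, against 56.1 and 60.4 after circEsyt2 siRNA. Since near copies can share reads, their coding sequences in GENCODE M21 were aligned, and the last gap-free stretch of 120 bases is shown, with the 26 bases that differ between the 2 genes in capitals.
Serpinb6a: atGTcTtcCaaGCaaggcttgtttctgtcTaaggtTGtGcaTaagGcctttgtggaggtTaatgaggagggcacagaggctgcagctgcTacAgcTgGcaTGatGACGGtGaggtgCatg
Serpinb6b: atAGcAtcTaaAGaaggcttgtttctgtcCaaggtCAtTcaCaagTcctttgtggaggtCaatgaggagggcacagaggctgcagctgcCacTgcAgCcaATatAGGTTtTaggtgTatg
The stretches are bases 979 to 1098 of the Serpinb6a and 919 to 1038 of the Serpinb6b coding sequence. Over the whole alignment 86.2% of 1128 aligned bases were identical, and the longest identical run was 57 bases. Of the 1048 windows of 150 bases in Serpinb6a, the length of 1 read, 0 also occurred in Serpinb6b. This already follows from the longest identical run and is no separate check. Only exact matches within coding sequence were sought. Exons of Serpinb6a cover 5409 bases, and reads with mismatches or from untranslated parts were not compared. How the aligner treated reads with more than 1 match is not given in the sources used here.

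Anxa2 and S100a10 encode the 2 subunits of the surface complex that docks plasminogen and tissue-type activator. Anxa2, on chromosome 9 at 69453620 to 69491795 (plus strand), was the most abundant of the 9 genes, at 274 and 287 FPKM with scramble siRNA, compared with 315 and 341 FPKM after circEsyt2 siRNA. The groups did not overlap, but the log2 fold change of 0.23 (SE 0.10, 95% confidence interval −0.01 to 0.46, adjusted p = 0.179) did not pass the test. S100a10, on chromosome 3 at 93555080 to 93564643 (plus strand), measured 112 and 133 against 131 and 108 FPKM. Its groups overlapped, and the log2 fold change was −0.03 (SE 0.14, 95% confidence interval −0.38 to 0.32, adjusted p = 0.896), an interval that holds changes of either sign. Anxa2 over S100a10 was 2.44 and 2.16 with scramble siRNA, compared with 2.41 and 3.15 after circEsyt2 siRNA, overlapping ranges.

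Lrp1, the large endocytic receptor that takes up urokinase and serpin complexes together with Plaur, lies on chromosome 10 at 127538161 to 127621148, minus strand. It measured 71.8 and 54.3 FPKM with scramble siRNA, compared with 47.1 and 56.2 FPKM after circEsyt2 siRNA. The groups overlapped, and the scramble libraries differed from each other by more than the group means did. The log2 fold change was −0.27 (SE 0.17, 95% confidence interval −0.70 to 0.15, adjusted p = 0.334). Its values rest on 3113 to 3964 counted reads.

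**Figure D2:**
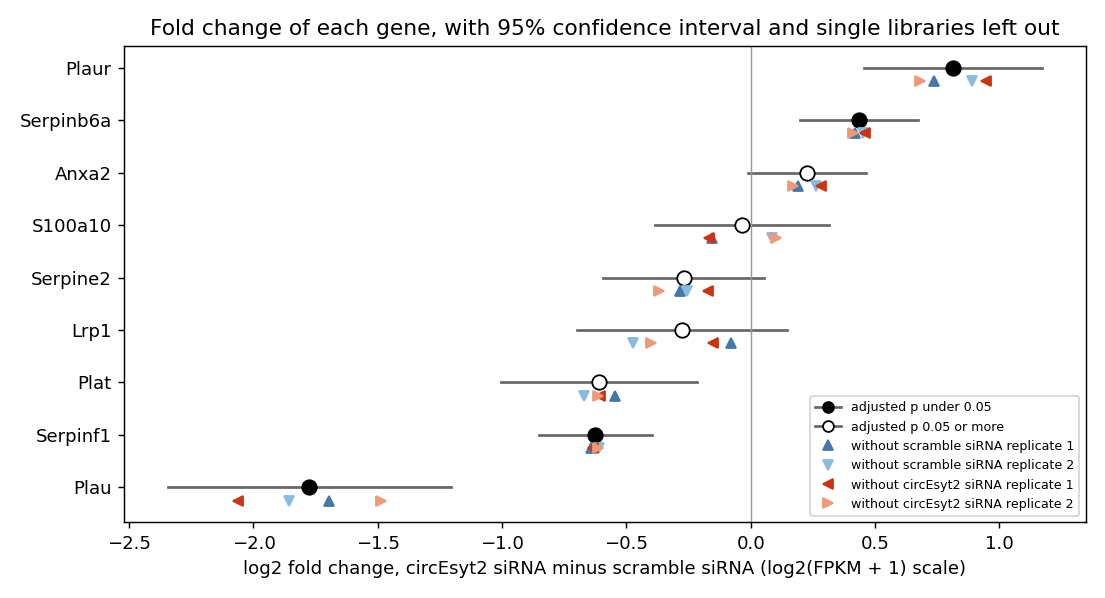
Log2 fold change of each gene (circEsyt2 siRNA minus scramble siRNA, log2(FPKM + 1) scale) with its 95% confidence interval from limma, filled where the adjusted p was under 0.05, and coloured triangles for the fits with 1 library left out. Plau lies farthest from 0, at −1.78, and the triangles of S100a10 lie on both sides of 0.

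Levels of the 9 genes per length ran, with scramble siRNA, from Anxa2 (mean 280 FPKM) through Serpinf1 (224), S100a10 (123), Serpinb6a (98.8), Lrp1 (63.1), Serpine2 (28.7), Plaur (23.1) and Plau (15.1) down to Plat (8.87). No 2 neighbours in this order overlapped in their 2 libraries. With circEsyt2 siRNA the order changed at 3 places: Serpinb6a (134) stood above S100a10 (120), Plaur (41.6) above Serpine2 (23.7), and Plat (5.46) above Plau (3.77), again with no overlap between neighbours. For Serpinb6a and S100a10 the margin was narrow, at 131.6 against 131.0 FPKM in circEsyt2 siRNA replicate 1. Anxa2 and Serpinf1 were the 2 most abundant of the 9 transcripts in each group, and the 2 activators were among the 3 lowest in each group.

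Plau over Serpine2, a ratio of activator to inhibitor transcripts per length, was 0.562 and 0.488 with scramble siRNA, while circEsyt2 siRNA libraries had 0.214 and 0.112. For Plat over Serpine2 the values were 0.327 and 0.291, against 0.248 and 0.216. The activator sum, Plau plus Plat, went from 25.2 and 22.6 to 10.2 and 8.32 FPKM. For each of these 3 quantities both circEsyt2 siRNA libraries lay under both scramble libraries. They were given no test, and transcript ratios are not protein activities.

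**Figure D3:**
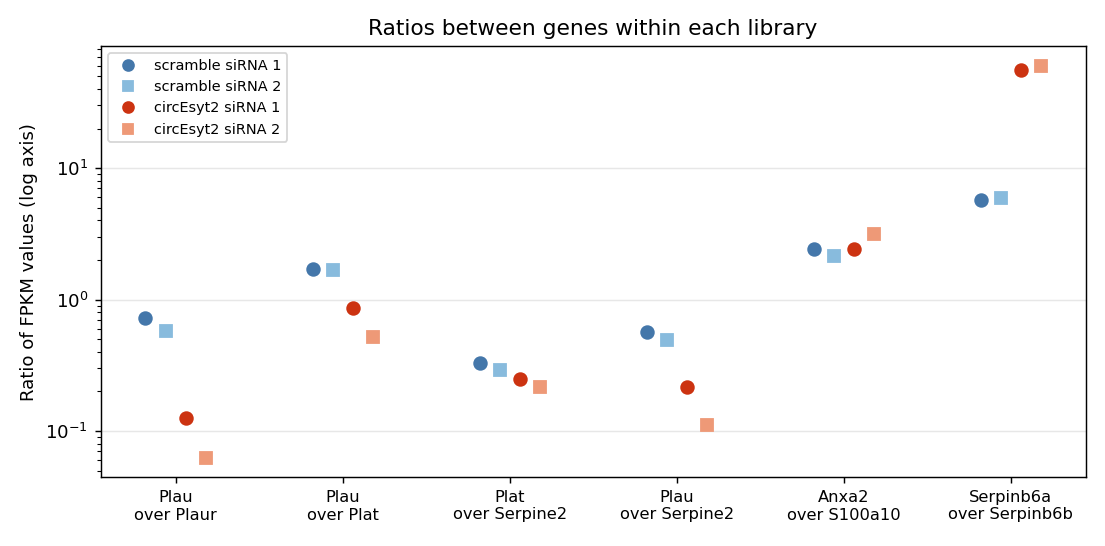
Ratios of FPKM values between genes within each library (log axis), blue for scramble siRNA and red for circEsyt2 siRNA. Plau over Plaur goes from 0.580 and 0.729 to 0.0624 and 0.125, and Serpinb6a over Serpinb6b from 5.74 and 5.89 to 56.1 and 60.4, while Anxa2 over S100a10 overlaps between groups.

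Of 39 other genes of the plasminogen system and its surroundings (receptors, integrins, clotting regulators and growth factors that the activators cleave), 31 were tested, 5 rose, 5 fell and 21 did not pass, with a median log2 fold change of −0.01. This is 10 of 31 called, where 12.7% of all tested genes were called, 5.47% higher and 7.26% lower. Vldlr, a relative of Lrp1 that also takes up urokinase and serpin complexes, rose from 4.46 and 3.72 to 14.2 and 15.5 FPKM, a log2 fold change of 1.65 (SE 0.17, adjusted p = 0.00508). Its rise was kept without circEsyt2 siRNA replicate 1 (1.70, adjusted p = 0.0173) and fell just short without replicate 2 (1.59, adjusted p = 0.0514).

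The 5 genes that fell were Itgav, Pdgfd, Serping1, Tfpi and F3. Itgav encodes the integrin alpha V chain, which binds vitronectin together with the urokinase receptor, and went from 51.5 and 47.5 to 22.9 and 28.7 FPKM (log2 fold change −0.92, SE 0.15). Pdgfd, a growth factor gene whose product urokinase can activate, went from 16.3 and 15.0 to 8.25 and 8.72 FPKM (log2 fold change −0.81). Serping1, which encodes the C1 inhibitor of complement, went from 81.7 and 70.3 to 47.5 and 35.8 FPKM (log2 fold change −0.86). Its log2 fold change was −1.06 without circEsyt2 siRNA replicate 1, in which hepatocyte markers were high, and −0.66 without replicate 2. The part of hepatocyte RNA in its level was not tested. Tfpi, the inhibitor of the tissue factor pathway, went from 29.5 and 26.4 to 14.6 and 18.03 FPKM (−0.75), and F3, tissue factor itself, from 175 and 187 to 132 and 130 FPKM (−0.47). The adjusted p of these 5 genes ran from 0.0173 to 0.0345, and with eBayes without a trend all 5 calls were lost.

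The 5 genes that rose were Vldlr and, named here after their values were seen, F2r, Itgb1, Serpinb2 and Anxa5. F2r, the thrombin receptor gene, went from 120 and 125 to 164 and 180 FPKM, and Itgb1, the integrin beta 1 chain gene, from 355 and 382 to 493 and 587 FPKM. Serpinb2, which encodes plasminogen activator inhibitor 2, went from 137 and 136 to 179 and 178 FPKM (log2 fold change 0.39, adjusted p = 0.0489), a call that only 4 of the 14 alternatives kept. Anxa5, another annexin gene, went from 377 and 385 to 540 and 478 FPKM (adjusted p = 0.0496). Also named after their values were seen, the docking gene Plgrkt (a plasminogen receptor) and Eno1 (enolase, which binds plasminogen at the surface) measured 7.95 and 6.33 against 6.29 and 5.81 FPKM and 163 and 156 against 135 and 144 FPKM, and neither passed the test.

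Plg, the gene of plasminogen itself, is expressed mainly by hepatocytes, and its level followed the library and not the group. It rested on 1 counted read in each scramble library and 0 in circEsyt2 siRNA replicate 2, at 0.107, 0.0655 and 0.00 FPKM, and on 379 reads (27.1 FPKM) in circEsyt2 siRNA replicate 1. A count of 0 in replicate 2 allows up to 3 reads. Other liver genes of the lists, named after their values were seen, were also highest in that library. Serpinf2 (the plasmin inhibitor alpha-2-antiplasmin) measured 0.00, 0.105, 16.5 and 0.275 FPKM, Cpb2 (a carboxypeptidase that protects fibrin) 0.00, 0.298, 14.7 and 0.393 FPKM, and Vtn (vitronectin) 0.392, 0.479, 56.3 and 2.84 FPKM, in the order scramble replicates 1 and 2 and circEsyt2 siRNA replicates 1 and 2. Each was highest in the library in which albumin (Alb) reached 2083 FPKM, against 65.7 FPKM in replicate 2 and 9.16 and 1.66 FPKM with scramble siRNA. None of these 4 genes passed the test on all libraries, and without replicate 2 the Plg call appeared (log2 fold change 4.70, adjusted p = 0.0320), while without replicate 1 Plg did not reach the mean FPKM of 1 needed to be tested.

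**Figure D4:**
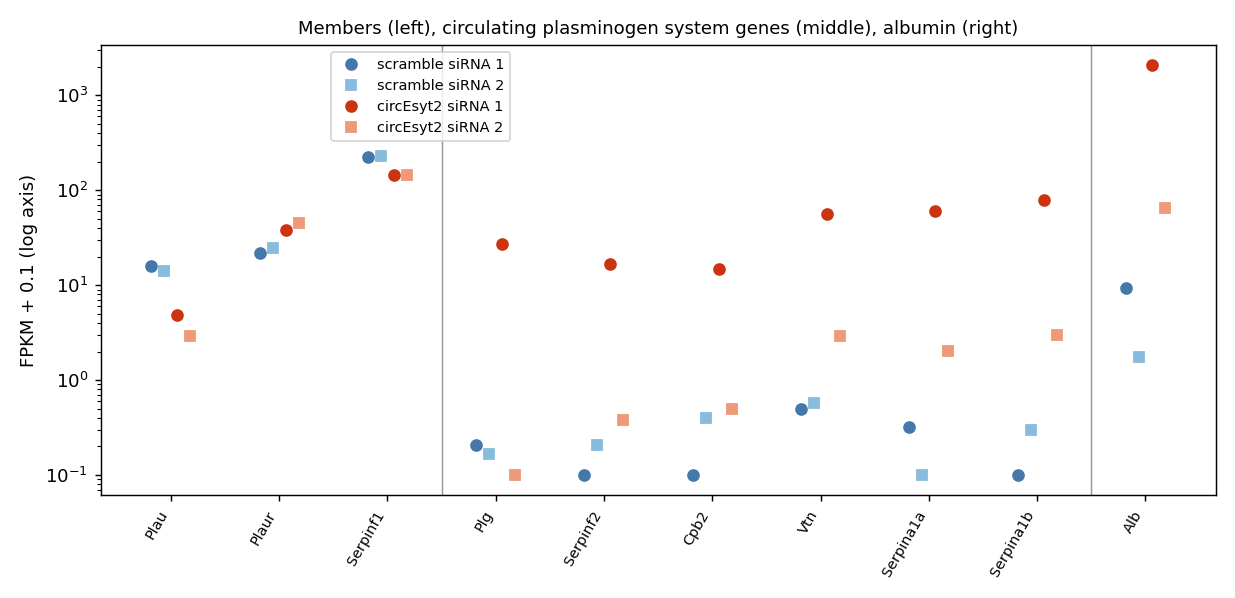
FPKM + 0.1 (log axis) of Plau, Plaur and Serpinf1 (left), of liver-made genes of both lists (middle) and of albumin (right). CircEsyt2 siRNA replicate 1 lies far above the other libraries in the middle and right parts, with Plg at 27.1 and Alb at 2083 FPKM, and next to replicate 2 in the left part.

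Of 24 other serpin genes, 23 were listed and 16 tested, of which 4 fell and 0 rose by limma (2 higher and 6 lower at an unadjusted p under 0.05, and 0 higher and 4 lower by voom). The shares over all tested genes were 7.26% lower and 5.47% higher by limma, 15.9% and 14.2% at an unadjusted p under 0.05, and 10.5% and 7.97% by voom. The median log2 fold change of this list was −0.42. The 2 higher genes were Serpina1a and Serpina1b, near 0 FPKM with scramble siRNA and high in circEsyt2 siRNA replicate 1. Genes like these could hardly come out lower, so the list counts set beside these shares are no test. Besides Serpinb6b, Serpina3g, an interferon-inducible serpin gene, went from 37.2 and 43.3 to 21.2 and 23.4 FPKM (log2 fold change −0.82, SE 0.14, adjusted p = 0.0190). Serpinb9, whose protein inhibits granzyme B, went from 26.2 and 28.9 to 12.5 and 16.0 FPKM (log2 fold change −0.91, SE 0.16, adjusted p = 0.0225). Serpinh1, the collagen chaperone HSP47, went from 419 and 392 to 302 and 316 FPKM, and its adjusted p of 0.0477 was kept by only 4 of the 14 alternatives. Serpins made by the liver went with the hepatocyte markers: Serpina1a measured 60.9 FPKM and Serpina1b 79.7 FPKM in circEsyt2 siRNA replicate 1, and each was at 2.91 FPKM or less in the other 3 libraries.

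**Figure D5:**
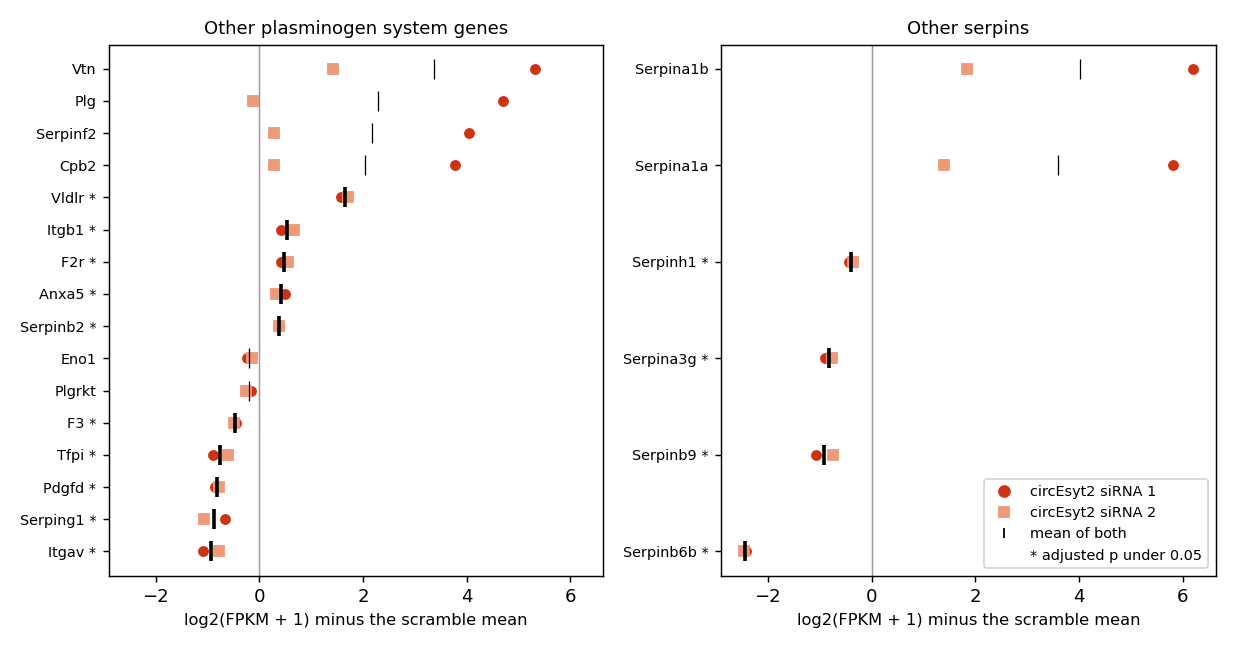
Log2(FPKM + 1) of each circEsyt2 siRNA library minus the mean of the scramble libraries for the tested genes of both lists that are named in the text, with the mean as a bar (asterisk, adjusted p under 0.05). The libraries agree for Vldlr and Serpinb6b and separate widely for Vtn, Plg, Serpinf2, Cpb2, Serpina1a and Serpina1b.

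The 5 genes whose profile over the 4 libraries was closest to that of Plau, by Euclidean distance between log2(FPKM + 1) values centred on the mean of each gene, were Nrn1, Syt13, Tmem35a, Ly6c1 and Iigp1. They were sought among 4620 tested genes with a mean of at least 10 FPKM, and their distances ran from 0.171 to 0.223. Nrn1, which encodes the membrane-anchored protein neuritin, measured 25.8 and 26.2 FPKM with scramble siRNA, compared with 7.79 and 5.40 FPKM after circEsyt2 siRNA. Ly6c1, a surface antigen gene of the same protein superfamily as the urokinase receptor, measured 63.5 and 65.3 against 19.2 and 13.7 FPKM. With 4 libraries, many genes share such a profile, and the list is a description only.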

How the data were processed

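RNA was sequenced from 2 scramble siRNA and 2 circEsyt2 siRNA libraries. The values the authors deposited are FPKM, scaled by gene length and library total, with 1 table per library. Trimmomatic, HISAT2 and featureCounts, with GRCm38 and mm10, are listed in the submitters' processing notes. Neither tool versions and settings nor the gene models used are given in the sources used here. An FPKM holds a whole read number, so library totals were solved with exon-union lengths of GENCODE M21 (99.4% of genes matched by symbol). Between 96.5% and 96.7% of values above 0 came out whole within 0.0001, including all 36 values of the 9 genes. Between 62.5% and 75.2% of read numbers up to 20 were even, so 1 fragment may count as 2 reads, and depth in fragments may be lower than the read numbers given. Read numbers and floors (3 reads) cover counting error only.

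Groups were compared with limma 3.58.1 under R 4.3.3, with a trend in eBayes and log2(FPKM + 1) as the response, for genes with a mean of at least 1 FPKM, two-sided, Benjamini-Hochberg adjusted over 11290 genes, threshold 0.05. This scale understates changes of low genes. The test was tried on simulated reads first, with an assumed dispersion of 0.02. Limma called 40 of 100 genes with a simulated log2 change of 1 and 97 of 100 with a change of 2. Voom called 72 and 99. A gene that did not pass may therefore still have changed. Of 10740 unchanged genes, limma called 14 and voom 6. The simulation changed few genes and held no library that stood apart, unlike these data, so its shares need not hold here. The genes and lists were chosen with earlier results of these data known. Named from the lists were the called genes, at most the 6 of smallest p (2 for transcription factors), with Plg. For cell types the rule allowed the 3 most abundant markers, and Tagln, Myh11, Myocd and Des were named outside it. Results of 2 genes of the lists are not reported here, but the genes stay in the counts. Alternatives were other pseudocounts (0.1 and 5), filters, scalings, voom, a replicate block and leaving out each library.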

Additional observations from a re-analysis of the deposited data

How the results depend on the processing

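The 4 calls among the 9 genes (2 higher and 2 lower) became 0 higher and 1 lower with eBayes without a trend, and 1 higher without the filter on low values and with quantile normalization, where the 2 lower calls stayed. Over all genes 617 were called higher and 820 lower, which became 203 and 374 with eBayes without a trend, and voom called 861 and 1131. In the wider plasminogen list the 5 higher calls became 3 with a pseudocount of 5, 1 without the filter, 1 with eBayes without a trend and 3 with quantile normalization, and the 5 lower calls became 0 with eBayes without a trend. Among the other serpins, 2 were higher with a pseudocount of 0.1 and 1 with a mean FPKM of at least 5, against 0, and 1 was lower with eBayes without a trend, against 4.

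Same-numbered libraries did not deviate together (r = −0.0507 across 11290 genes). With 2 libraries per group, effects of a single library can hide a pairing, so this does not decide whether the numbers pair them. With the replicate block, 404 genes were called higher and 604 lower, with 1 of the 9 genes higher and 2 lower. The block also left 1 higher and 3 lower calls in the wider list.

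Leaving out 1 library at a time, the filter was applied to the remaining 3, and the lone library of a group was assumed to vary like the other group. The plan named the filter on 4 libraries, and both versions are given because the choice was made after seeing the data. Genes called higher ran from 0 to 405 and lower from 0 to 622. Without circEsyt2 siRNA replicate 1 they were 405 and 622, and without replicate 2 they were 272 and 228. Of the 9 genes, 0 to 1 were called higher and 0 to 2 lower. In the 2 lists, the genes called higher without circEsyt2 siRNA replicate 2 were not those called higher by the main fit. In the wider list they were Plg, Serpinf2, Cpb2 and Vtn, and among the other serpins they included Serpina1a and Serpina1b. All of these were highest in circEsyt2 siRNA replicate 1, in which hepatocyte markers were high. With the genes tested on 4 libraries kept, 0 to 276 genes were called higher and 0 to 205 lower, all without circEsyt2 siRNA replicate 2, with 0 of the 9 genes higher and 0 to 1 lower (Plau). The log2 fold change of S100a10 ran from −0.169 to 0.102. Its sign changed when scramble replicate 2 (0.0875) or circEsyt2 siRNA replicate 2 (0.102) was left out, and the cause was not tested. That of Plg changed sign without circEsyt2 siRNA replicate 1 (−0.119), only with the genes tested on 4 libraries kept. This Plg value rests on 1, 1 and 0 counted reads, so its sign says nothing.

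The 2 libraries per group and 21 to 138 counted reads for Plau set the precision.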
